A study of Mus musculus with 2 samples.

Results

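The genes of DNA replication and of deoxynucleotide synthesis were examined in the cerebellum of mice on the C57BL/6 background at postnatal day 3. The set holds 44 genes, chosen by name, and all 44 were found among the 22423 genes of the table. RNA was sequenced from a Prdm16fl/fl control, in which both Prdm16 alleles carry loxP sites, and from a Prdm16cKO mouse, the conditional knockout (cKO). The Cre driver, the deleted exons and the sex are not given in the sources used here. The design text speaks of triplicates, while the table has 1 column of counts per genotype, and each column was treated as 1 library. Nothing says whether a column pools animals. With 1 library per genotype, no difference below has a replicate check, and none was tested.

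Before a cell divides it copies its genome. Origins are licensed when the origin recognition complex, with Cdc6 and Cdt1, loads the MCM helicase onto DNA. Cdc45 and the GINS complex then turn the loaded helicase on, DNA polymerases extend primers along the clamp PCNA, and ribonucleotide reductase and thymidylate synthesis supply the building blocks. Transcription of many of these genes is driven by E2F factors as cells pass from G1 to S phase. In the early postnatal cerebellum the dividing cells are mainly granule neuron progenitors of the external granule layer, which multiply in response to Sonic hedgehog. In bulk tissue, more dividing cells and more RNA per dividing cell cannot be told apart.

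The regulatory sequence before these genes is shown first, because the genes share E2F control as textbook knowledge and the ratios below lie mostly on the same side of 0. RefSeq promoters on build GRCm38.p6 were matched by symbol for 36 of the 44 genes (all but Gins1, Gins2, Gins4, Mcm4, Pole, Prim2, Rfc2 and Ccne2), and the 250 bases before each annotated start were searched on both strands. E2F sites were searched as TTTGGCGC, TTTCGCGC, TTTGCCGC or TTTCCCGC. At least 1 of these strings stood before 9 of 36 genes (25%), against 583 of 27025 genes in the promoter table (2.16%). The 9 were Mcm5, Mcm6, Mcm7, Cdc6, Orc1, Gins3, Pola1, Rfc3 and Uhrf1. The NF-Y box CCAAT stood before 22 of 36 genes (61.1%) and before 37.5% of all genes. An E2F string and CCAAT both stood before 8 of the 36 (22.2%), against 0.966% of all genes. On lists used below, CCAAT stood before 20 of 27 mitotic genes (74.1%) and 10 of 27 further replication factors (37.0%). An E2F string stood before 1 of those mitotic genes (3.70%) and 4 of those replication factors (14.8%). Member promoters had a median GC content of 60.4%, against 52.4% for all promoters, and the part of GC content in these shares was not tested. A match is a description of the letters and not a bound site. Annotated starts were taken as given, so a gene without a match can hold such a string elsewhere. E2f1 is counted as a gene without a string on that basis alone.

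Promoters of 6 genes are shown, 3 helicase genes and Gins3 that hold an E2F string, Orc1 that holds a string but had the lowest ratio, and Mcm3 that holds none but had the highest helicase ratio. Each is written 5′ to 3′ and ends at the base before the start, and capitals mark the E2F strings, which overlap each other in Mcm5 and Mcm6. Mcm7 has 2 annotated starts, and the upstream one is shown.
Mcm5, chr8:75109259-75109508, plus strand: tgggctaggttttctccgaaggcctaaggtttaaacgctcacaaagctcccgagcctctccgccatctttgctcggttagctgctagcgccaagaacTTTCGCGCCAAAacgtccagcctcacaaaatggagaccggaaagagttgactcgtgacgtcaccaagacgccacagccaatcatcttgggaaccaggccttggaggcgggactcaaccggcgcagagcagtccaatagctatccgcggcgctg
Mcm6, chr1:128359706-128359955, minus strand: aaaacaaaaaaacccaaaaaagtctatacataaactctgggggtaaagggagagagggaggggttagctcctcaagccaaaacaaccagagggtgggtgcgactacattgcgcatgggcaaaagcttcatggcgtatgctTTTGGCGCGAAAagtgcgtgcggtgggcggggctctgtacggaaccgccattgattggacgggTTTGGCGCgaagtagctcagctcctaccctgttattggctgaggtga
Mcm7, chr5:138171884-138172133, minus strand: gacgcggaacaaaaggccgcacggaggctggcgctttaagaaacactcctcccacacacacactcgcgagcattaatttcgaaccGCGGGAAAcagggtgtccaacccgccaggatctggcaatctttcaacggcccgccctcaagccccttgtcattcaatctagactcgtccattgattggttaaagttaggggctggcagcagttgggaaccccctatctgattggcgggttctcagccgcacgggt
Gins3, chr8:95633309-95633558, plus strand: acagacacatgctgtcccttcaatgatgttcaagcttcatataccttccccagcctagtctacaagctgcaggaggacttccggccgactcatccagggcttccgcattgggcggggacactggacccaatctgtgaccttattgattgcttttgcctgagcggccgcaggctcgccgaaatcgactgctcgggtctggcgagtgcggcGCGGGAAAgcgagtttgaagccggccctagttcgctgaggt
Orc1, chr4:108579204-108579453, plus strand: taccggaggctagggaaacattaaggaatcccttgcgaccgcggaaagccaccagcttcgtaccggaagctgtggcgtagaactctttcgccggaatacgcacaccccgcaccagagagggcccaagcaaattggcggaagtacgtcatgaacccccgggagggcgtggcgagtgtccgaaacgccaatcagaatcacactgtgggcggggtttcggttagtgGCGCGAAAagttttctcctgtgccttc
Mcm3, chr1:20820313-20820562, minus strand: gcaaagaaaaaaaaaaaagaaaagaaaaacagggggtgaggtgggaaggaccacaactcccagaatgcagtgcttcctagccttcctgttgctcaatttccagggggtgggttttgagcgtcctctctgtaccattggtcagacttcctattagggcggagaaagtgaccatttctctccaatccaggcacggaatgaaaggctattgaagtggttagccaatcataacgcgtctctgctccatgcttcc

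In Mcm5 the overlapping strings begin 153 and 149 bases before the start. In Mcm6 an overlapping pair begins 110 and 106 bases before the start and a further string 47 bases before it. The 9 genes with a string had a median log2 ratio of cKO over control of 0.20, and the 27 without had 0.16, so the genes with and without these letters lay close together.

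**Figure D1:**
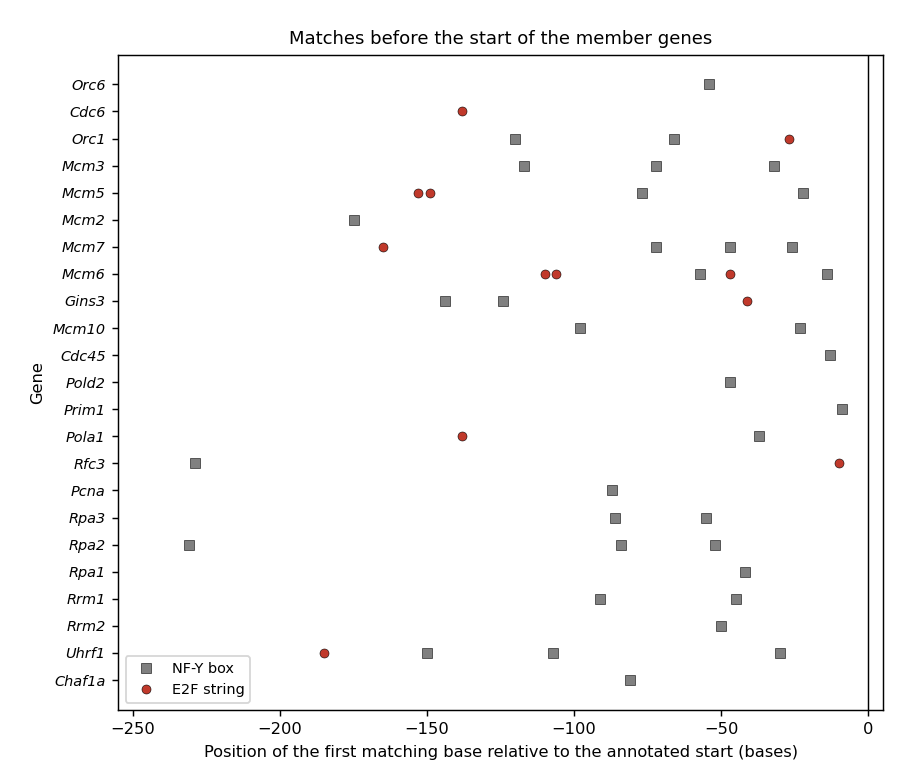
Positions of E2F strings (red circles) and NF-Y boxes (grey squares) in the 250 bases before the annotated start, 1 row per gene with a match; the x axis gives the first matching base relative to the start. E2F strings stand before 9 genes and NF-Y boxes before 22, with alternative starts of a gene drawn on 1 row.

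Gene reads totalled 18600299 for the control library and 17501279 for the cKO library. Prdm16, the targeted gene and a zinc finger transcriptional regulator, had 315 and 118 reads, a log2 ratio of -1.30 (-1.62 to -0.99). For the labelled tissue, all 14 granule neuron progenitor markers, such as Atoh1, and all 10 Purkinje cell markers had reads. The libraries also differed in ways that run with genotype. All 12 choroid plexus markers had intervals below 0, with summed levels of 6091 control CPM against 193 cKO CPM (CPM is counts per 1e6 scaled reads). Of 6 measured brainstem neuron markers 4 were lower. Xist had 14779 and 21 reads, and Eif2s3y, a Y-linked gene, had 0 and 1195. Among the 44 genes only Pola1 is X-linked. The part of these differences in the results below was not tested.

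Replication and nucleotide genes were slightly higher as a set in the cKO library, and none of them by much. Together the 44 genes took 0.270% of control reads (exact binomial interval 0.268 to 0.272%) and 0.302% of cKO reads (0.2997 to 0.305%). Their summed level was 2672 CPM for the control against 3055 CPM for the cKO, a 1.14-fold difference and a log2 ratio of 0.19 (0.18 to 0.21). Parentheses after log2 ratios give exact binomial 95% intervals, which hold counting error alone, with reads taken as independent molecules. Ratios were above 0 for 40 of 44 genes, against 51.3% of all 18787 compared genes. With the median of 16 housekeeping genes set to 0, 33 of 44 ratios were above 0. That scaling lowers every gene alike, and the median of all compared genes was then -0.10.

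By a 2-fold rule the interval must also exclude 0. Under it 0 of 44 genes were higher and 0 lower, against 1.21% and 2.20% of all compared genes. Of 10120 other genes with at least 500 reads, 2 (0.02%) were higher and 40 (0.40%) lower. The member counts of 0 lie near these shares. By a 1.2-fold rule 12 of 44 were higher (27.3%) and 0 lower, against 7.19% and 8.52% of all genes. For 29 of 44 genes (65.9%) the interval lay above 0, and for 0 below it, against 17.0% and 15.5% of all genes. With housekeeping genes at 0 the interval lay above 0 for 13 genes and below it for 1. The shares of all genes given here and below do not apply to that scaling, which lowers all genes alike. Counts in that scaling, here and below, thus have no background beside them. An interval is narrower where a gene has more reads, so genes of like depth are the closer background. Of the 40 members with at least 500 reads, 37 had ratios above 0 (92.5%), 27 had intervals above 0 (67.5%) and 10 passed the 1.2-fold rule upwards. Of all 10160 genes that deep these shares were 54.3%, 25.4% and 7.17%. Downwards the members gave 0 by interval and 0 by the 1.2-fold rule, against 20.0% and 7.05% of those genes. Counts for the role groups below are to be read beside these shares.

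The median log2 ratio of the members was 0.17, and that of all compared genes was 0.01. Members with at least 500 reads had a median of 0.17 with an interquartile range from 0.11 to 0.27, and all genes of that depth had a median of 0.02 and a range from -0.10 to 0.13. Of 44 members, 34 had an interval that included the ratio of their summed reads. Across the 44 genes the log2 ratio had a Pearson r of 0.14 with the log2 of reads, a description only, over genes of the same 2 libraries.

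**Figure D2:**
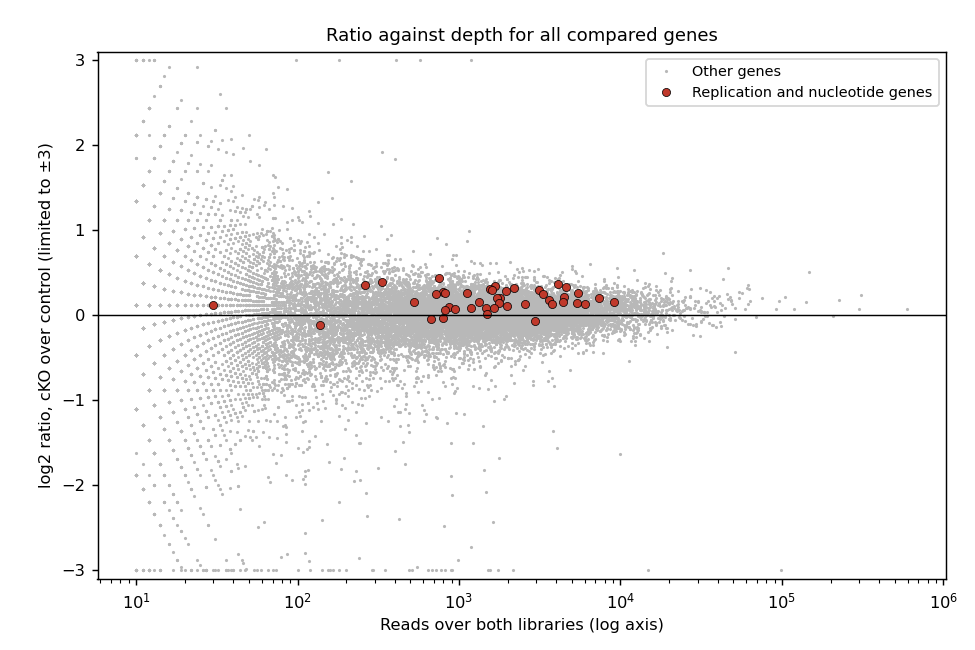
Log2 ratio of cKO over control against reads over both libraries (log axis) for all compared genes (grey) and the 44 replication and nucleotide genes (red); ratios beyond 3 are drawn at the edge. The red points lie mostly above 0, between -0.11 and 0.44, inside the cloud of other genes.

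Levels between genes were compared per kb of annotated exon, since longer transcripts give more reads. Pcna stood highest, at 99.2 control and 111 cKO CPM per kb. Mcm7 (42.7 and 49.2 CPM per kb) and Rrm2 (36 and 39.4 CPM per kb) came next in both libraries. Orc1, at 1.13 and 1.05 CPM per kb, and Fen1, at 0.329 and 0.358 CPM per kb, were the lowest in both. The order was almost the same in the 2 libraries, with a Spearman rho of 0.99 over 44 genes given as a description. Exon lengths come from GENCODE vM21 and count every annotated exon, so a gene with long, rarely used exons is understated.

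**Figure D3:**
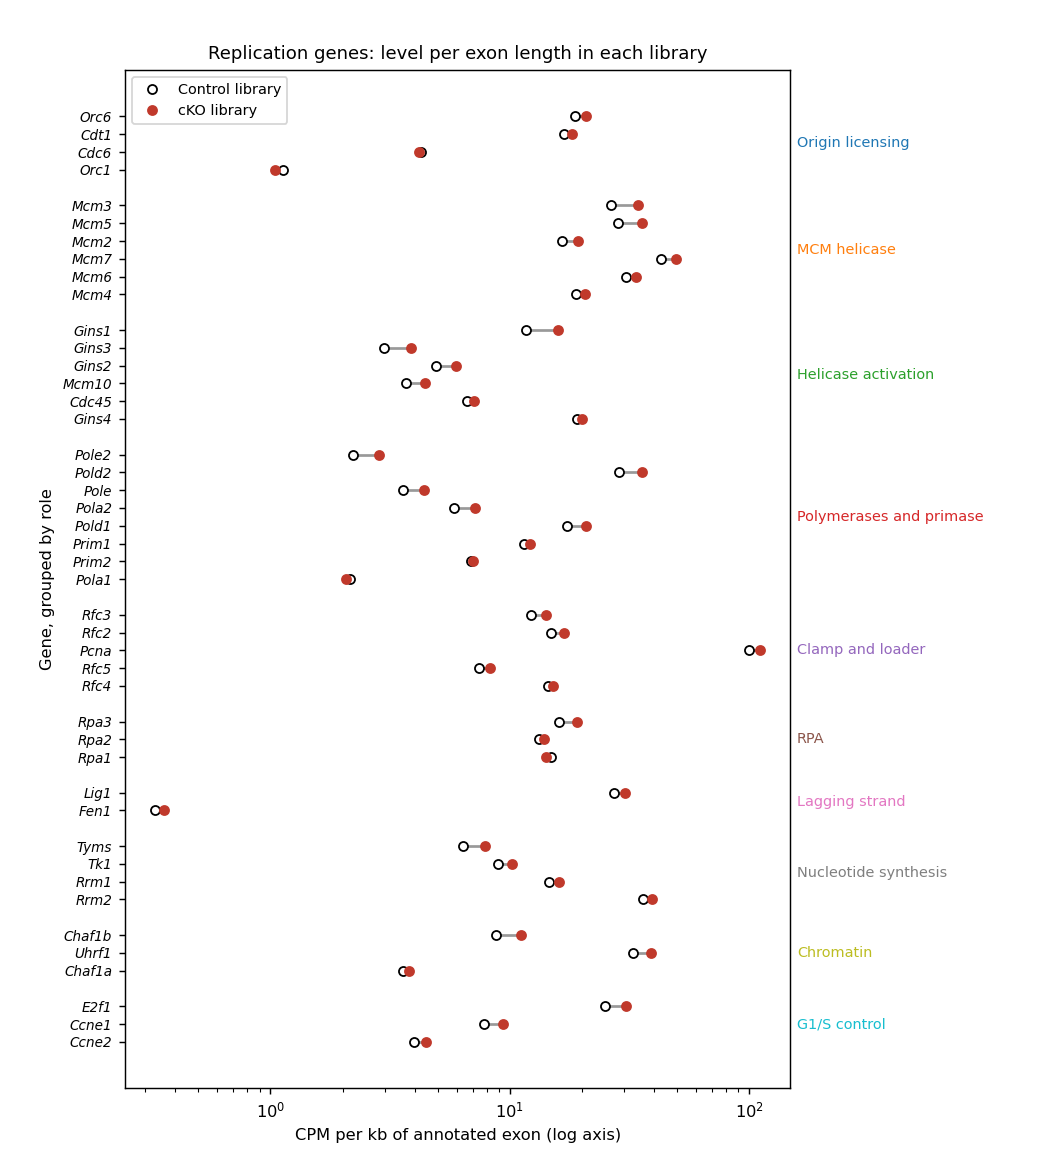
Level of each gene in CPM per kb of annotated exon (log axis) in the control (open circles) and cKO (red circles) library, grouped by role. Red lies right of open for 40 of 44 genes, and the distance within a gene is small beside the distances between genes.

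Origin licensing genes stood close to 0 as a group. Their summed reads were 2350 and 2315, a log2 ratio of 0.10 (0.01 to 0.18), which turned to -0.01 when housekeeping genes set the scale. Orc6, a subunit of the origin recognition complex, had 869 and 888 reads, or 46.2 and 51.3 CPM, and the group's highest ratio at 0.15 (0.01 to 0.29). Cdt1, which brings the helicase to origins, had 990 and 987 reads (0.11, -0.01 to 0.24). Cdc6, the ATPase that acts with it, had 417 and 377 reads (-0.03, -0.23 to 0.18). Orc1, the largest subunit of the recognition complex, had 74 and 63 reads, or 3.94 and 3.64 CPM, and the lowest ratio of all 44 genes at -0.11 (-0.62 to 0.39). Of the 4 genes only Orc6 had an interval above 0, and 0 did with housekeeping scaling. That share of 25% is near the 25.4% of all genes with at least 500 reads.

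All 6 subunits of the MCM helicase were higher in the cKO library, with intervals above 0 for 6 of 6. Summed reads of Mcm2 to Mcm7 were 13651 for the control against 14777 for the cKO, a 1.17-fold difference and a log2 ratio of 0.23 (0.20 to 0.27), and 0.12 with housekeeping scaling. In that scaling 4 of 6 intervals stayed above 0, while those of Mcm4 (0.03, -0.08 to 0.14) and Mcm6 (0.03, -0.05 to 0.11) included it. Mcm3 had 1871 and 2217 reads, or 99.5 CPM (95.1 to 104) and 128 CPM (123 to 133). Its ratio of 0.36 (0.27 to 0.45) was the group's highest. Mcm5 had 2125 and 2469 reads, or 113 and 143 CPM, a ratio of 0.33 (0.25 to 0.42). These 2 subunits passed the 1.2-fold rule and the other 4 did not. Mcm2 had 2156 and 2313 reads (0.22, 0.13 to 0.30), and Mcm7, the most abundant per kb, had 3552 and 3775 (0.21, 0.14 to 0.27). Mcm6 had 2679 and 2718 reads (0.14, 0.06 to 0.22), and Mcm4 had 1268 and 1285 (0.14, 0.02 to 0.25). The interval of Mcm3 did not overlap those of Mcm4, Mcm6 and, by a narrow margin (0.2734 against 0.2724), Mcm7. That of Mcm5 did not overlap that of Mcm6. The subunits are known to assemble in equal numbers. Their levels ran from 16.5 to 42.7 CPM per kb for the control and from 19.2 to 49.2 CPM per kb for the cKO.

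The factors that turn the helicase on held the 2 highest ratios of the set, those of Gins1 and Gins3. Gins1 and Gins3 encode subunits of the GINS complex, which joins Cdc45 and the MCM ring to form the active helicase. Gins1 had 334 and 418 reads, or 17.8 CPM (15.9 to 19.8) and 24.1 CPM (21.9 to 26.6), a ratio of 0.44 (0.23 to 0.65) and the highest of all 44. Gins3 had 151 and 182 reads, or 8.03 and 10.5 CPM (0.39, 0.07 to 0.71). Gins2 had 378 and 421 reads (0.27, 0.07 to 0.48), and Gins4 had 482 and 468 (0.08, -0.11 to 0.26). The intervals of the 4 subunits overlap one another. Mcm10, which helps the helicase leave the origin, had 533 and 587 reads (0.26, 0.09 to 0.43), and Cdc45 had 437 and 431 (0.10, -0.10 to 0.29). Intervals lay above 0 for 4 of 6 genes, and with housekeeping scaling for Gins1 alone. The group's summed ratio was 0.23 (0.15 to 0.32).

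Among the 8 polymerase and primase genes of the set, the 4 of polymerases delta and epsilon had intervals above 0, while those of Pola1 and the primase genes included it. Pold2, an accessory subunit of polymerase delta, had 1014 and 1169 reads, or 53.9 and 67.5 CPM (0.32, 0.20 to 0.45). Pold1, its catalytic subunit, had 1589 and 1741 reads (0.25, 0.15 to 0.35). For polymerase epsilon, the catalytic gene Pole had 747 and 843 reads (0.29, 0.15 to 0.44). Pole2, its second subunit, had 120 and 142 reads and the group's highest ratio at 0.36, with a wide interval that reached up to 0.72 and down almost to 0. The polymerase alpha and primase complex, which lays down primers, was split. Its regulatory subunit gene Pola2 had 914 and 1028 reads (0.29, 0.16 to 0.42). Its catalytic gene Pola1 had 356 and 317 reads, or 18.9 and 18.3 CPM, and the group's lowest ratio at -0.05 (-0.27 to 0.17). The primase genes Prim1 (829 and 812 reads) and Prim2 (770 and 718 reads) stood at 0.09 (-0.05 to 0.23) and 0.02 (-0.13 to 0.17). The intervals of Pola1 and Pola2 overlapped at their ends. Of the 8 genes, 5 had intervals above 0, or 4 with housekeeping scaling, and 4 passed the 1.2-fold rule. Further subunits outside the set were Pold3 (0.21, 0.09 to 0.33), Pole3 (0.16, 0.06 to 0.26), Pold4 (0.24, -0.04 to 0.52) and Pole4 (0.04, -0.12 to 0.20).

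The sliding clamp and its loader stood near the set as a whole, with a summed log2 ratio of 0.16 (0.12 to 0.21). Pcna, the clamp that tethers polymerases to DNA and a common label of dividing cells, had 4477 and 4612 reads, or 238 CPM (231 to 245) and 266 CPM (259 to 274). Its ratio of 0.16 (0.10 to 0.22) is a 1.12-fold difference. Reads of 2 processed copies were few, with 23 and 15 for Pcna-ps2 and 1 and 1 for Pcna-ps1. Rfc3, a subunit of the loader that opens the clamp, was highest with 834 and 884 reads (0.20, 0.06 to 0.34). Rfc2 followed with 1756 and 1835 (0.18, 0.09 to 0.28) and Rfc5 with 654 and 669 (0.15, -0.01 to 0.31). Rfc4 was lowest with 417 and 401 reads (0.06, -0.14 to 0.26). Intervals lay above 0 for 3 of 5 genes, for 0 of 5 with housekeeping scaling, and 0 of 5 passed the 1.2-fold rule.

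Replication protein A, the trimer that coats unwound DNA, had near-equal sums of reads per library size. Its genes had 2648 and 2468 reads together, a log2 ratio of 0.02 (-0.06 to 0.10), an interval that did not overlap that of the MCM sum. Rpa1, the large subunit, had 1564 and 1371 reads, or 83.2 and 79.2 CPM (-0.07, -0.18 to 0.03). Rpa2 had 741 and 722 reads (0.08, -0.07 to 0.23), and Rpa3, the small subunit, had 343 and 375 (0.25, 0.03 to 0.46). The 3 subunits thus spread over both sides of 0, and only Rpa3 had an interval above it (25.4% of genes with at least 500 reads did). With housekeeping scaling that interval included 0, and that of Rpa1 lay below it. RPA also acts in DNA repair and recombination and is made by cells that do not divide.

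Of the lagging strand genes, Lig1, the ligase that joins Okazaki fragments, had 2177 and 2236 reads (0.16, 0.07 to 0.24), and 0.05 (-0.04 to 0.13) with housekeeping scaling. Fen1, the nuclease that trims those fragments, had 15 reads in each library, or 0.798 CPM (0.447 to 1.32) and 0.866 CPM (0.485 to 1.43). Its ratio of 0.12 had an interval from -1.02 to 1.25, so neither a difference nor its absence was detectable at this depth. In GENCODE vM21 the antisense gene Gm10143 covers 1909 of the 2422 exon bases of Fen1 (78.8%), and it had 9 and 5 reads. Gse1 covers 67.3% of the exon bases of Gins2, and Ubxn6 covers 52.5% of those of Chaf1a. Strand use and the treatment of reads shared by overlapping genes are not given in the sources used here, so the levels of these 3 genes are uncertain. The part of the overlap in the low Fen1 count was not tested.

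**Figure D4:**
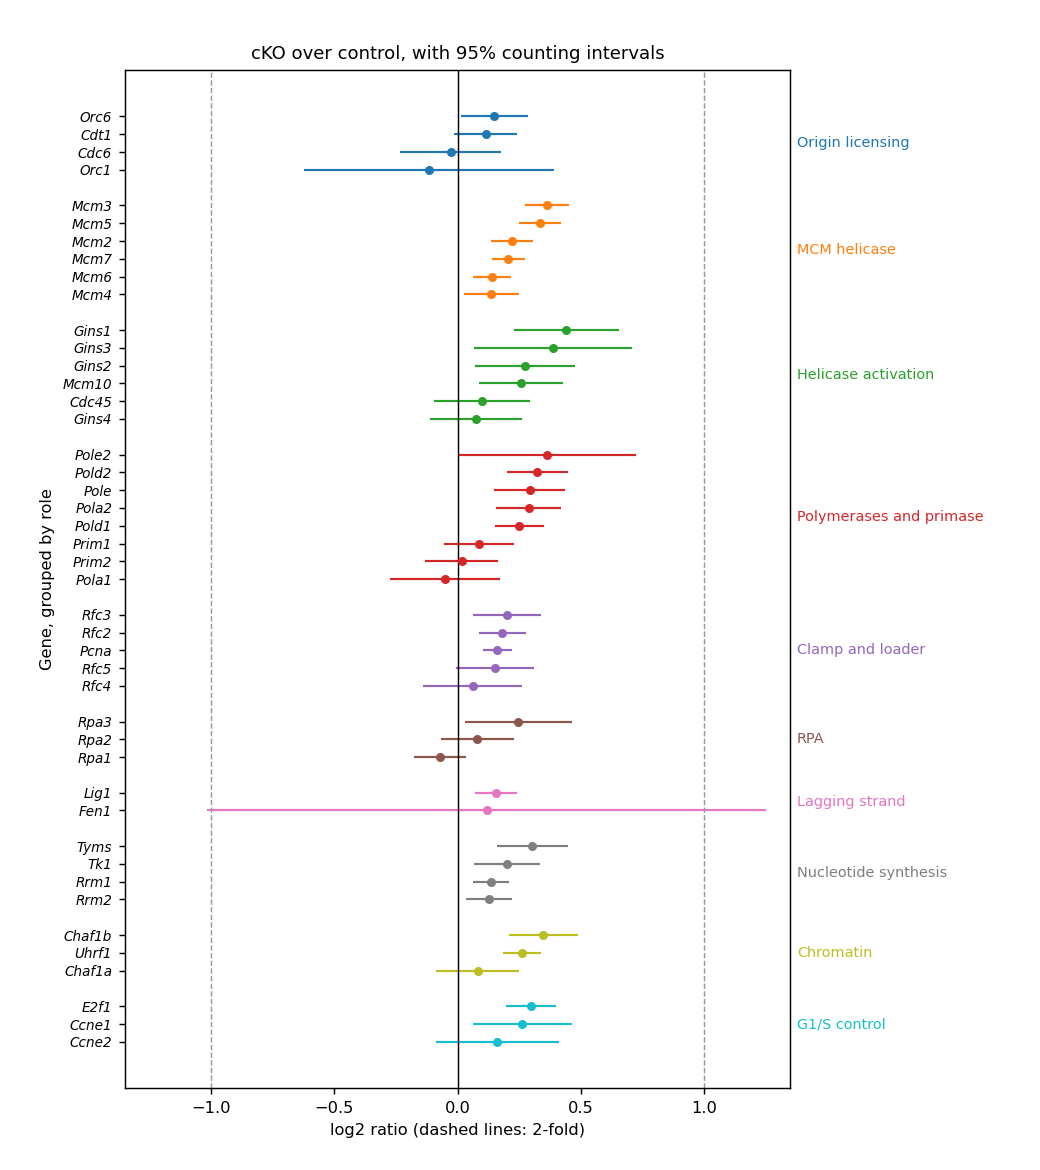
Log2 ratio of cKO over control for the 44 genes with exact binomial 95% intervals (counting error only), grouped by role; dashed lines mark 2-fold. No point reaches a dashed line, 29 intervals lie right of 0, and the interval of Fen1, with 15 reads per library, is the widest.

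All 4 genes of deoxynucleotide supply had intervals above 0, but with housekeeping scaling Tyms alone did. In that scaling Rrm1 stood at 0.03 (-0.05 to 0.10), Rrm2 at 0.02 (-0.07 to 0.11) and Tk1 at 0.09 (-0.04 to 0.23). Rrm1, the large subunit of ribonucleotide reductase, had 3013 and 3048 reads, or 160 and 176 CPM (0.13, 0.06 to 0.21). Rrm2, the small subunit that cycles with S phase, had 1877 and 1890 reads, or 99.9 and 109 CPM (0.13, 0.04 to 0.22). The reductase subunits thus had nearly the same ratio. Tyms, which makes thymidylate, was the group's highest with 729 and 829 reads, or 38.8 and 47.9 CPM (0.30, 0.16 to 0.45). Tk1, the kinase that salvages thymidine, had 869 and 920 reads (0.20, 0.06 to 0.34). Tyms alone of the 4 passed the 1.2-fold rule.

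Genes that rebuild chromatin behind the fork were higher for 2 of 3. Chaf1b, a subunit of the histone chaperone CAF-1, had 773 and 906 reads, or 41.1 and 52.3 CPM (0.35, 0.21 to 0.49). Its partner Chaf1a had 597 and 582 reads (0.08, -0.09 to 0.25), with the overlap named above. Uhrf1, which guides DNA methylation to newly made strands, had 2604 and 2877 reads, or 139 and 166 CPM (0.26, 0.18 to 0.34). The G1 to S regulators followed the same direction. E2f1, the activating transcription factor of S phase genes, had 1473 and 1667 reads, or 78.4 CPM (74.4 to 82.5) and 96.3 CPM (91.7 to 101), a ratio of 0.30 (0.19 to 0.40). The E cyclin gene Ccne1 had 390 and 431 reads (0.26, 0.06 to 0.46), and Ccne2 had 261 and 269 (0.16, -0.09 to 0.41). With housekeeping scaling the intervals of Chaf1b, Uhrf1 and E2f1 stayed above 0 and that of Ccne1 did not.

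Among replication factors outside the set, the share of intervals above 0 was closer to the background, while other shares stood above it. On a list of 34 further replication factors, 27 ratios were above 0 (79.4%), against 54.3% of all genes with at least 500 reads. The list had 10 intervals wholly above 0 and 2 wholly below, and its median was 0.11. The 10 are 29.4% of the list, against 17.0% of all genes and 25.4% of those with at least 500 reads. With housekeeping scaling 7 lay above 0 and 6 below. By the 1.2-fold rule 7 were higher (20.6%) and 1 lower (2.94%), against 7.17% and 7.05% of genes with at least 500 reads. Clspn, the checkpoint adaptor claspin, was highest with 544 and 695 reads (0.47, 0.31 to 0.64). Rnaseh2c, a subunit of the nuclease that removes ribonucleotides from DNA, was lowest with 912 and 608 reads (-0.47, -0.62 to -0.32). Kat5 on the opposite strand overlaps 24.8% of its exon bases, with 1201 and 1288 reads.

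A list of 33 further nucleotide synthesis genes also held Slc29a1 (0.14, 0.05 to 0.24) and Samhd1 (0.01, -0.13 to 0.15), which are not synthesis genes. On this list 25 ratios were above 0 (75.8%), against 54.3% of all genes with at least 500 reads. It had 15 intervals wholly above 0, that of Slc29a1 among them, 3 wholly below and a median of 0.12. The 15 are 45.5% of the list, against 25.4% of all genes with at least 500 reads. With housekeeping scaling 4 lay above 0 and 6 below. Mthfd2, a mitochondrial folate enzyme, was highest with 280 and 360 reads (0.48, 0.25 to 0.71). Prps2, which makes the ribose donor of nucleotide synthesis, was lowest and the 1 gene past the 2-fold rule. Control reads numbered 1366 against 393 in the cKO library, or 72.7 CPM (68.9 to 76.6) against 22.7 CPM (20.5 to 25.05). This 3.20-fold lower level is a log2 ratio of -1.68 (-1.84 to -1.52), and the gene ranked 24 from the lowest of 10160 genes with at least 500 reads. Prps2 is X-linked, and the libraries differ in sex-linked and in choroid plexus transcripts. The part of either difference in the Prps2 ratio was not tested. Its X-linked paralog Prps1 had 916 and 741 reads (-0.19, -0.33 to -0.05).

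Of 9 measured chromatin assembly genes outside the set, 5 (55.6%) had intervals above 0 and 0 below, or 2 and 1 with housekeeping scaling. Of all genes with at least 500 reads, 25.4% had intervals above 0. The chromatin assembly genes ran from the histone-binding gene Rbbp4 (-0.06, -0.13 to 0.01) to Slbp, which binds histone mRNA (0.33, 0.21 to 0.45). Their median was 0.16. A list of 15 other E2F and Rb family genes also held Ccna2, Cdk2 and Cdc25a, which belong to neither family. Of the genes on this list, 7 (46.7%) had intervals above 0 and 1 below, with a median of 0.07. Ccna2 (0.16, 0.06 to 0.26) and Cdk2 (0.25, 0.11 to 0.39) were among the 7, and Cdc25a stood at -0.01 (-0.18 to 0.16). With housekeeping scaling 4 lay above 0 and 4 below, with a median of -0.04. The highest was E2f4, a repressive family member, with 1145 and 1436 reads (0.44, 0.33 to 0.56). The lowest was the activator E2f3, with 815 and 665 reads (-0.18, -0.33 to -0.03).

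Mitotic genes, which act after replication in the same dividing cells, stood beside the replication genes. All 30 had ratios above 0, with a median of 0.22 and a summed ratio of 0.22 (0.20 to 0.24). Intervals lay above 0 for 22 (73.3%), or 13 genes with housekeeping scaling, and 13 passed the 1.2-fold rule (43.3%). Of all genes with at least 500 reads, 54.3% had ratios above 0, 25.4% had intervals above 0 and 7.17% passed that rule upwards. The summed ratio of the replication genes, 0.19 (0.18 to 0.21), overlapped that of the mitotic genes. The extremes were Cenpe, a kinetochore motor (0.06, -0.11 to 0.22), and Mad2l1, a spindle checkpoint gene (0.42, 0.29 to 0.55). Lists of other cells and of housekeeping genes lay on both sides of the replication median. Median ratios were 0.29 for 10 Purkinje cell markers, genes of neurons that no longer divide, and 0.31 for 10 meningeal fibroblast markers. They were 0.11 for 14 granule neuron progenitor markers, whose summed levels were 2993 and 3145 CPM, 0.10 for 11 postmitotic granule neuron markers and 0.11 for 16 housekeeping genes. The progenitor markers ran from Ccnd2 at -0.19 to Atoh1 at 0.61. Of these 14, 10 had intervals above 0 (71.4%) and 1 below, or 4 and 4 with housekeeping scaling. Astrocyte, oligodendrocyte, microglia and endothelial lists had medians between -0.04 and 0.04, but single genes differed in both directions. Of 10 astrocyte markers 4 had intervals above 0 and 4 below, from Slc1a2 at -0.41 to Gdf10 at 0.26. These counts were 1 and 1 of 8 oligodendrocyte, 2 and 1 of 8 microglia and 0 and 2 of 8 endothelial markers. With housekeeping scaling the replication median was 0.06.

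**Figure D5:**
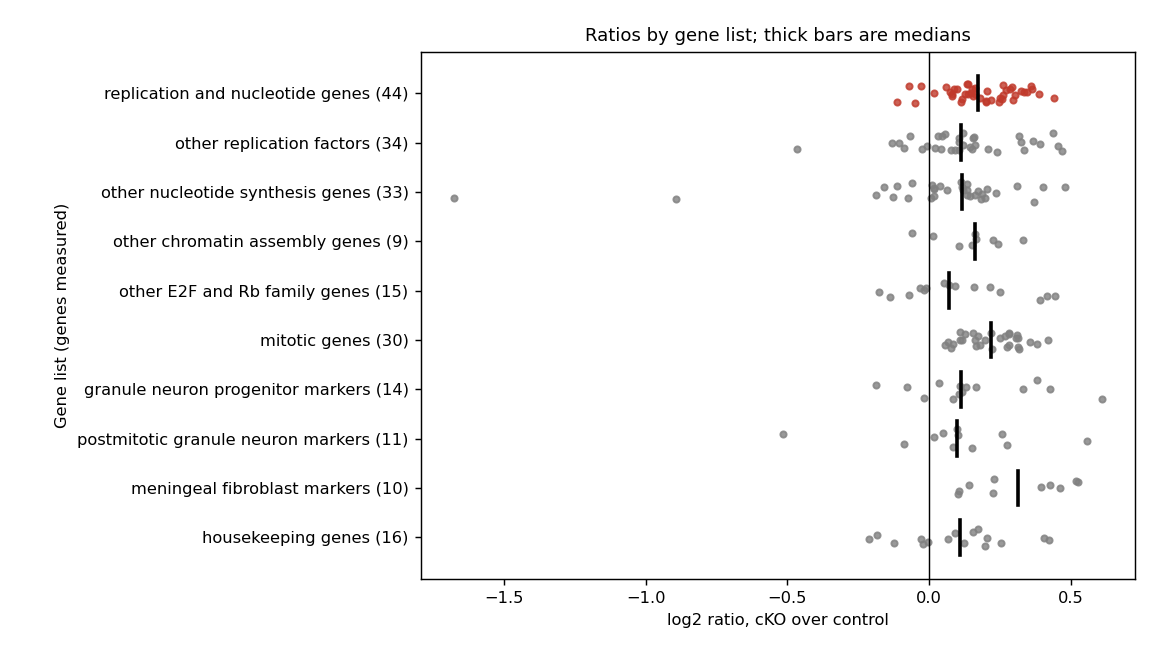
Log2 ratio of cKO over control for each gene (points) on the replication and nucleotide list (red) and 9 other lists (grey), with medians as thick bars. The replication median of 0.17 lies between the housekeeping median of 0.11 and the mitotic median of 0.22, and Prps2 at -1.68 is the farthest point on the nucleotide list.

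In the authors' deposited table, 21 of the 44 genes had an adjusted p below 0.05, all 21 with higher values in the cKO. In the authors' deposited table such a p was given for 21.5% of all 22423 genes, and 9.04% had it with a higher value in the cKO. The authors' value for Mcm3 was 6.42e-12, and for Fen1 it was 0.715. The labels and headers do not name the tool behind these values, and a p from 1 library per genotype compares the libraries and not the genotypes.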

How the data were processed

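RNA sequencing counts were compared between 1 control and 1 cKO library of postnatal day 3 cerebellum. The deposited counts are raw reads per gene, per the file headers. Build mm9, HTSeq 0.6.0, TopHat2 2.0.12 and Bowtie2 2.2.3 appear, with no role or order, per the submitters' processing notes. The deposited CPM values are the counts times 1 factor per column (44846 of 44846 values within a relative tolerance of 0.0001, a count of 0 shown as 0.5), the authors' fold change is their ratio, the authors' log2 column its logarithm, and the authors' p-value and adjusted p columns are quoted only where named. Unused per-sample columns numbered 0.

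Counts were scaled by TMM in edgeR 4.0.16 (R 4.3.3), with factors of 1.01 and 0.990. Compared were the 18787 of 22423 genes whose reads summed to 10 or more. Log2 ratios carry exact binomial (Clopper-Pearson) 95% intervals and CPM values exact Poisson ones. Where a library had 0 reads, 3 counts were put in as the limit that a count of 0 allows (0.160 CPM control, 0.173 CPM cKO). Both limits and intervals hold counting error alone, and PCR reads lacking molecular identifiers are not independent. With 1 library per genotype no test was made. The interval code was tested on simulated data.

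The 44 members and 17 further lists were chosen with earlier results of these data known, and markers and housekeeping genes serve only as context. Named genes were Pcna, Mcm2 to Mcm7, Rrm1, Rrm2, E2f1, the highest and lowest member of each role, any member past 2-fold or with an interval below 0, the highest and lowest gene with at least 50 reads on each other pathway list, and Prdm16. Every other gene was named after its values were seen. Lists of astrocytes, oligodendrocytes, microglia and endothelium had median log2 ratios of -0.00, -0.04, 0.04 and 0.01, Purkinje cells 0.29, brainstem neurons -2.38, choroid plexus -4.65 and sex-linked genes 7.69.

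Scaling, read minimum, interval, fold threshold and motif set were varied. DESeq2 1.42.0 gave size factors. Exon lengths and overlaps came from GENCODE vM21 (GRCm38) and serve only for lengths and neighbours. Promoters came from RefSeq (GRCm38.p6). Computing used Python 3.11.15 with scipy 1.17.1, pandas 2.3.3, numpy 2.4.6 and matplotlib 3.10.9.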

Additional observations from a re-analysis of the deposited data

How the results depend on the processing

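No paired analysis was possible because each genotype has 1 library and the comparison has no test. For the same reason no replicate could be left out. Counts of members past the 2-fold rule were 0 in each direction under every alternative run, including a 1.5-fold threshold. The member median log2 ratio of 0.17 and summed ratio of 0.19 stayed above 0 under every alternative run. They were 0.14 and 0.16 with total counts, 0.15 and 0.17 with DESeq2 size factors, and 0.063 and 0.085 with the housekeeping median at 0, which shifts every gene by -0.11. The difference of the member median from the median of all genes is 0.16 under each scaling, since a scaling moves all genes alike. With housekeeping scaling 13 members had intervals above 0, 1 had an interval below 0 (Rpa1, at -0.18) and 1 passed the 1.2-fold rule. The 7 members that changed sign there all had intervals including 0 before. In that scaling the licensing sum was -0.012 and the median of the E2F and Rb list -0.038. Scalings chosen after seeing the data gave 0.13 and 0.15 for totals without choroid plexus, brainstem and sex-linked genes, with 7 members past 1.2-fold and 1 interval below 0, and 0.15 and 0.17 for totals without mitochondrially encoded genes. Weighting the members by reads gave 0.19. Leaving out members overlapped over more than 10% of exon bases, chosen after seeing the data, gave a median of 0.20. With the 99% interval 23 members lay above 0. The shorter motif set of 2 strings gave 6 genes (16.7%, against 0.759% of all genes). Depth limits Fen1 and Orc1 most, and the lack of replicates limits every value.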

Other observations

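Some genes outside the set, named after their values were seen, lay well above the median of their lists. The fork protection genes Timeless (862 and 994 reads, 0.32, 0.19 to 0.46) and Tipin (854 and 1080 reads, 0.46, 0.33 to 0.59), whose products bind each other at the fork, stood beside Clspn at 0.47. Dbf4, the activating partner of the Cdc7 kinase, had 711 and 826 reads (0.33, 0.19 to 0.48), while Cdc7 itself had 715 and 612 (-0.11, -0.26 to 0.05). Gmnn, the inhibitor of Cdt1, had 301 and 358 reads (0.37, 0.14 to 0.59). Other initiation factors lay nearer to or below the list median of 0.11, among them Orc2 at -0.13, Topbp1 at 0.09, Ticrr at 0.12 and Recql4 at 0.15, all 4 with intervals that included 0.

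The mitochondrial serine enzyme gene Shmt2, whose product feeds one-carbon units into folate metabolism, also lay high with 2448 and 2979 reads (0.40, 0.32 to 0.48). Of the repressive E2F genes, E2f7 (454 and 549 reads, 0.39, 0.21 to 0.57) and E2f8 (451 and 555 reads, 0.42, 0.24 to 0.60) stood close to E2f4, while E2f5 stood at 0.21 (0.04 to 0.38) and E2f6 at 0.05 (-0.11 to 0.21). Adssl1, the muscle-type adenylosuccinate synthase gene, was lower with 107 and 53 reads (-0.90, -1.40 to -0.41), while its paralog Adss stood at 0.11 (0.00 to 0.22).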
